A study of Mus musculus with 16 samples.

Results

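Succinate dehydrogenase, or complex II, was followed through its 4 subunit genes Sdha, Sdhb, Sdhc and Sdhd and its assembly factor genes Sdhaf1 and Sdhaf2 in mouse blood neutrophils, 6 genes of the 23337 gene symbols counted. They were selected on their measured log2 fold changes, as a family that lay lower in stimulated than in unstimulated LTβRΔN libraries, so that comparison and every other one that holds LTβRΔN libraries is given for these genes as a description without a test. The choice held for 5 of the 6. In that comparison Sdhaf1 had a log2 fold change of 0.03, just above 0, and the member nearest to 0 on the other side was Sdhb at -0.27. The test reported for the members is that between treatment labels in control neutrophils, whose libraries this choice did not use. Earlier results of these data were known when the genes were chosen. The fit also estimates spread over all 16 libraries, with the LTβRΔN ones among them.

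The neutrophils were taken from the blood of 8-week-old mice labelled C57/Bl6, enriched with magnetic beads by negative selection, and cultured for 2 h. LTβRΔN mice carried floxed alleles of Ltbr, the lymphotoxin β receptor gene, together with Mrp8-Cre, a Cre recombinase with EGFP under the S100A8 promoter, which deletes the gene in neutrophils. Controls were Ltbr fl/fl littermates without Cre, so both genotypes shared the floxed alleles. Controls gave 3 unstimulated and 4 stimulated libraries, and LTβRΔN mice gave 4 and 5. The culture protocol lists 100 ng/ml of TNF, 50 of IL-6 and 100 of GM-CSF, and LIGHT, a ligand of LTβR, as present (500 ng/ml) or absent. The series' design text instead names presence of the cytokines as the treatment, and since the labels of single libraries do not mention LIGHT, the groups keep the label words stimulated and unstimulated. The response genes Cish, Socs3 and Nfkbia had log2 fold changes of 8.60, 4.03 and 5.0 between these labels in control neutrophils. In LTβRΔN neutrophils these were 8.05, 3.59 and 4.85.

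Library totals ran from 4437039 to 11932653 counts in control and from 1094335 to 11424825 counts in LTβRΔN neutrophils. Of the 5 shallowest libraries, which reached at most 2728981 counts, 4 were stimulated LTβRΔN libraries. Ltbr lay between 84.6 and 154 CPM in controls and between 0.705 and 18.1 CPM in LTβRΔN libraries, with log2 fold changes between genotypes of -3.80 without and -3.71 with stimulation (edgeR adjusted p = 1.09e-04 and 3.83e-05). CPM are counts relative to the TMM-scaled library total, and SE is the standard error of a log2 fold change. The 7 neutrophil markers listed summed to between 44400 and 74900 CPM, while B cell markers reached at most 1.6 CPM and erythroid markers at most 1.49 CPM. T cell markers summed to between 4.3 and 16.4 CPM and eosinophil markers to between 37.6 and 114 CPM. Immature neutrophil markers summed to between 40 and 764 CPM. Cd3e, Prg2, Epx, Mpo and Elane were at 0 in every library, so the sums of their lists came from other genes. For eosinophils these were Siglecf and Ccr3, and for T cells Cd3d, Cd3g and Lck. Markers of monocytes summed to between 341 and 561 CPM in all groups, with Ccr2 at 0 in 3 of the 4 groups. In the stimulated groups F13a1 was at 0 too, so the sum there came from Csf1r and Ly6c2. Platelet markers summed to at most 39.1 CPM except for 170 CPM in replicate 3 of stimulated controls, which also had the highest sum of immature neutrophil markers, 764 CPM.

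Complex II oxidises succinate to fumarate in the tricarboxylic acid (TCA) cycle and passes the electrons to ubiquinone in the inner mitochondrial membrane, so it belongs to both the cycle and the electron transport chain. Unlike the other respiratory complexes it pumps no protons, and all its subunits are encoded in the nucleus. Neutrophils rely largely on glycolysis for ATP, and in myeloid cells succinate oxidation is studied for its part in mitochondrial ROS and in stabilisation of the transcription factor HIF-1α.

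Sdha encodes the flavoprotein that holds the FAD cofactor and the succinate site, and Sdhb the iron-sulfur subunit that carries electrons onward. Sdhc and Sdhd encode the membrane anchors, which form the ubiquinone site and hold a heme. Sdhaf2 attaches FAD to SDHA, and Sdhaf1 helps to bring iron-sulfur clusters into SDHB. In GRCm38 the genes lie on 6 chromosomes: Sdha at chr13:74322254-74350280, Sdhb at chr4:140961203-140979193, Sdhc at chr1:171127165-171150603, Sdhd at chr9:50596357-50603812, Sdhaf1 at chr7:30321406-30323895 and Sdhaf2 at chr19:10500534-10526142. Sdhb lies on the plus strand and the others on the minus strand.

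Promoter windows of Sdha, Sdhb and Sdhd, the 3 members with the highest levels, are shown because their transcripts were the best measured and are followed closest below. Each runs from 250 bases before to 50 bases after the transcription start in RefSeq (GRCm38.p6), written 5′ to 3′ on the strand of the gene. Capitals mark matches, on either strand, to the NRF1 consensus (GCGCA, any base, GCGC) or the ETS letters CCGGAAG. NRF1 is a transcription factor known for its sites before respiratory chain genes. The windows are chr13:74350191-74350490 for Sdha, chr4:140961021-140961320 for Sdhb and chr9:50603800-50604099 for Sdhd.
Sdha: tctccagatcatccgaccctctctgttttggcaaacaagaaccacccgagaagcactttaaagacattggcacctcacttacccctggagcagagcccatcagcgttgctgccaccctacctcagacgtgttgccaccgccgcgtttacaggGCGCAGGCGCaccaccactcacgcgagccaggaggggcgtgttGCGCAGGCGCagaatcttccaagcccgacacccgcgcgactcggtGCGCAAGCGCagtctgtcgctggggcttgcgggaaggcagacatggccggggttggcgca
Sdhb: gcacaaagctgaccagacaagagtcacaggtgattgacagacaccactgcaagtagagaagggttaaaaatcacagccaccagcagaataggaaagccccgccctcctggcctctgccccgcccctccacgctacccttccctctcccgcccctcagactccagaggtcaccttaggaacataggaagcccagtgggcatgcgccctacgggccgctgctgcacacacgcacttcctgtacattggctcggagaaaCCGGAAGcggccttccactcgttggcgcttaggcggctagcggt
Sdhd: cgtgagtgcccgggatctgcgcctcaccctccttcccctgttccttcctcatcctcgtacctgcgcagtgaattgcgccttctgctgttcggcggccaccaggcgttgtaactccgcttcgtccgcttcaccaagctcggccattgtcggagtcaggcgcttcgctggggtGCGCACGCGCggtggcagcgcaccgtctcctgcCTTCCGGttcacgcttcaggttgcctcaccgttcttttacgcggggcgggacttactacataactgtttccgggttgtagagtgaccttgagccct
The Sdha window held 3 NRF1 matches, whose first bases lie at positions -98, -55 and -10 from the start, and no ETS match. In the Sdhb window 1 ETS match lay at position 6 and no NRF1 match was found. The Sdhd window held 1 of each, at positions -79 and -46. Of the 6 members 5 had a window, and 2 of these held the NRF1 letters, 4 the ETS letters, 4 the GC box GGGCGG and 3 the letters CCAAT. The RefSeq windows of Sdhaf1 (chr7:30322326-30322625) and Sdhaf2 (chr19:10525160-10525459) lie inside the gene spans given above, away from the starts of those spans. Both held ETS letters and a GC box. Among all 32851 mouse promoter windows of this length, 4.6% held the NRF1 letters, 8.86% the ETS letters, 35.7% the GC box and 37.4% CCAAT, each searched on both strands, and no match to one of these overlapped a match to another in the printed windows. Matches describe letters in these windows and not bound sites.

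Both Sdha and Sdhd face a neighbour that is transcribed in the opposite direction. In the GENCODE annotation Ccdc127 starts 29 bp from Sdha. Timm8b, which encodes a small chaperone of mitochondrial protein import, starts 98 bp from Sdhd. The printed windows are placed on RefSeq starts, which differ from these. Part of the Sdha and of the Sdhd window also belongs to the neighbour. Sdhaf2 shares 94 exonic bases with Cpsf7 on the other strand and Sdhaf1 shares 1733 with E130208F15Rik, which the count table does not list by that name. The strand setting of the counting is not given in the sources used here, so reads in those shared bases could belong to either gene.

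**Figure D1:**
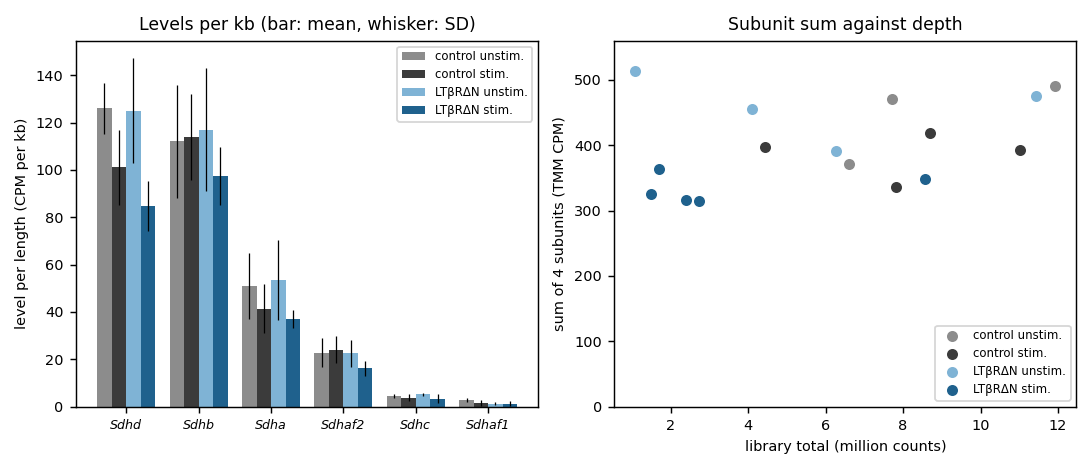
Left, level per length (CPM per kb of the principal transcript) of the 6 genes in the 4 groups, bars giving the mean and whiskers the SD. Right, summed level of the 4 subunits (TMM CPM) in each of the 16 libraries against its total count. Sdhd and Sdhb stand highest, Sdhc and Sdhaf1 lowest, and the 5 stimulated LTβRΔN libraries lie between 314 and 363 CPM.

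Levels per length differed widely among genes whose proteins join 1 to 1 in the complex. In unstimulated control neutrophils the means were 126 CPM per kb for Sdhd, 112 for Sdhb, 50.8 for Sdha and 4.33 for Sdhc. One membrane anchor was thus counted at a far higher level per kb than the other. Whether reads of each gene could be placed and counted equally well was not tested. The assembly factor genes had means of 22.8 CPM per kb for Sdhaf2 and 2.74 for Sdhaf1. The order Sdha, Sdhaf2, Sdhc, Sdhaf1 below the leading pair held in every group mean. Sdhb and Sdhd did not separate: Sdhb was above Sdhd per kb in 8 of 16 libraries, and with all exons joined as the length Sdhd came first in all 4 groups. Sdhc was above Sdhaf1 in 14 of 16 libraries, and every other pair kept its order in 16 of 16.

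The spread between libraries of one group was widest for the transcripts with the lowest levels. Pooled over the groups, the coefficient of variation was 14.3% for Sdhd, 17.7% for Sdhb, 23.7% for Sdhaf2, 23.8% for Sdha, 39.6% for Sdhc and 65.3% for Sdhaf1. Sdhc rested on between 4 and 212 counts per library and Sdhaf1 on between 0 and 118, whereas none of the other members fell below 73 counts. The counting error is therefore largest for Sdhc and Sdhaf1, and other sources of spread were not separated from it.

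**Figure D2:**
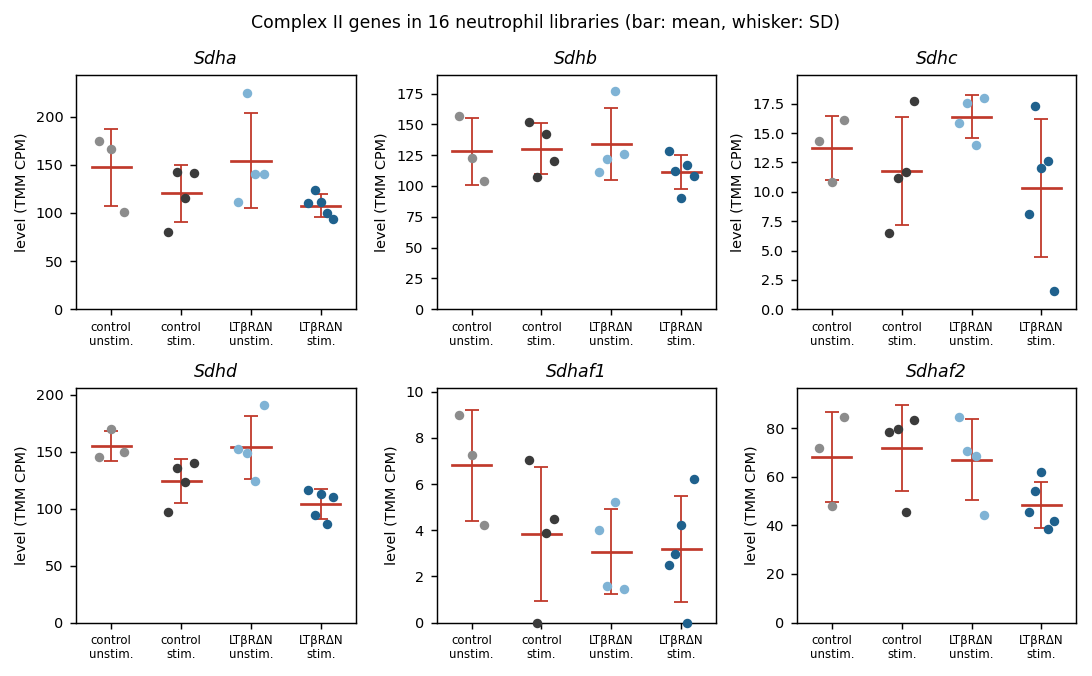
Level (TMM CPM) of each complex II gene in each of the 16 libraries (points), by genotype and treatment label, with the group mean (bar) and SD (whisker). Sdhd is the gene whose stimulated libraries all lie below the unstimulated libraries in both genotypes. The LTβRΔN libraries were used in choosing the genes.

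Sdhd was lower in all stimulated than in all unstimulated libraries, in both genotypes. Its levels in unstimulated controls were 145, 170 and 150 CPM and in stimulated controls 97.2, 136, 123 and 140 CPM. Means were 155 ± 13.5 CPM (SD, n = 3) and 124 ± 19.3 CPM (SD, n = 4). The log2 fold change of -0.32 (SE 0.17) did not pass the threshold of 0.05 after adjustment over all genes (edgeR unadjusted p = 0.0734, adjusted p = 0.522, and between 0.0531 and 1 over the alternatives), and 6.09% of the 9213 genes tested had stimulated control libraries that all lay below the unstimulated ones, and 6.58% had them all above.

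In LTβRΔN neutrophils Sdhd stood at 152, 149, 124 and 191 CPM without and at 116, 94.4, 113, 86.7 and 110 CPM with stimulation. The highest stimulated library, at 116 CPM, was below the lowest unstimulated one, at 124 CPM. The log2 fold change was -0.57 (SE 0.15), given as a description since this comparison chose the gene, and 2.67% of genes tested lay apart in this direction. Across the 17 alternatives of processing or libraries run for controls, the Sdhd log2 fold change was below 0 in each, between -0.572 and -0.219. The 19 run for LTβRΔN neutrophils gave -0.75 to -0.448. Their shared sign is no result, since the gene was chosen on those libraries. All alternatives reuse the same libraries.

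Sdha, the catalytic subunit, had a lower mean with stimulation in both genotypes, but its groups overlapped. Control libraries held 175, 166 and 101 CPM without and 80.1, 143, 116 and 142 CPM with stimulation. The unstimulated replicate at 101 CPM lay below 3 of the 4 stimulated ones, and the log2 fold change was -0.30 (SE 0.23, edgeR adjusted p = 0.77). It was -0.509 without that unstimulated replicate 3 and -0.143 without stimulated replicate 1, the library at 80.1 CPM. In LTβRΔN neutrophils the values were 111, 225, 141 and 141 CPM against 110, 124, 111, 99.7 and 93.4 CPM, with a log2 fold change of -0.51 (SE 0.21). The 225 CPM came from replicate 2, the shallowest library at 1094335 counts, and without it the log2 fold change was -0.289.

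Sdhb, the iron-sulfur subunit, was at nearly one level in 3 of the 4 groups. Means were 128 ± 27.1 CPM (SD, n = 3) in unstimulated and 130 ± 20.7 CPM (SD, n = 4) in stimulated controls, 134 ± 29.5 CPM (SD, n = 4) in unstimulated and 111 ± 14 CPM (SD, n = 5) in stimulated LTβRΔN neutrophils. Library values ran from 104 to 157 and from 107 to 152 CPM in the control groups, and from 111 to 177 and from 90.2 to 128 CPM in the LTβRΔN groups. The log2 fold change in controls was 0.03 (SE 0.19, edgeR adjusted p = 0.989), and it took the other sign under several alternatives. It was -0.27 (SE 0.17) in LTβRΔN neutrophils, with overlapping groups, and -0.1 without unstimulated replicate 3, the library at 177 CPM.

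Sdhc, the anchor with few counts, was lower on average with stimulation in both genotypes with a wide error. Controls had 14.3, 10.8 and 16.1 CPM without and 6.49, 11.2, 11.7 and 17.7 CPM with stimulation, and the log2 fold change was -0.22 (SE 0.52, edgeR adjusted p = 0.963). With 1 library left out it ran from -0.489 without stimulated replicate 4 to -0.0177 without stimulated replicate 1. LTβRΔN libraries had 15.9, 17.6, 14 and 18 CPM without and 8.1, 17.3, 12, 12.6 and 1.55 CPM with stimulation. Stimulated replicate 5, at 1.55 CPM, stood lowest of all 16 libraries on 4 counts. The log2 fold change in LTβRΔN neutrophils was -0.65 (SE 0.47) with this library and -0.368 without it.

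Sdhaf2, the FAD attachment factor, did not fall in the control mean. It stood at 71.7, 47.9 and 84.6 CPM in unstimulated and at 78.5, 79.7, 45.6 and 83.5 CPM in stimulated controls, with a log2 fold change of 0.08 (SE 0.26, edgeR adjusted p = 0.974). In LTβRΔN neutrophils 84.6, 70.4, 68.6 and 44.4 CPM stood against 45.5, 54.1, 62, 38.6 and 41.8 CPM, a log2 fold change of -0.47 (SE 0.23) with overlap through the unstimulated library at 44.4 CPM. Without that library it was -0.628.

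Sdhaf1, the cluster insertion factor, had the lowest mean level of the members. Its levels were 8.97, 7.25 and 4.21 CPM in unstimulated and 7.03, 0, 3.86 and 4.49 CPM in stimulated controls, with a log2 fold change of -0.81 (SE 1.04, edgeR adjusted p = 0.919). LTβRΔN libraries held 4.02, 1.6, 5.21 and 1.45 CPM without and 2.49, 2.97, 4.23, 0 and 6.2 CPM with stimulation, with a log2 fold change of 0.03 (SE 0.97). In the libraries with 0 counts, a count of 0 allows a level of up to 0.712 CPM in the control and 1.35 CPM in the LTβRΔN library. The control library at 0 stood beside 52, 39 and 36 counts in the other stimulated controls. In both genotypes the SE exceeded the size of the log2 fold change.

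**Figure D3:**
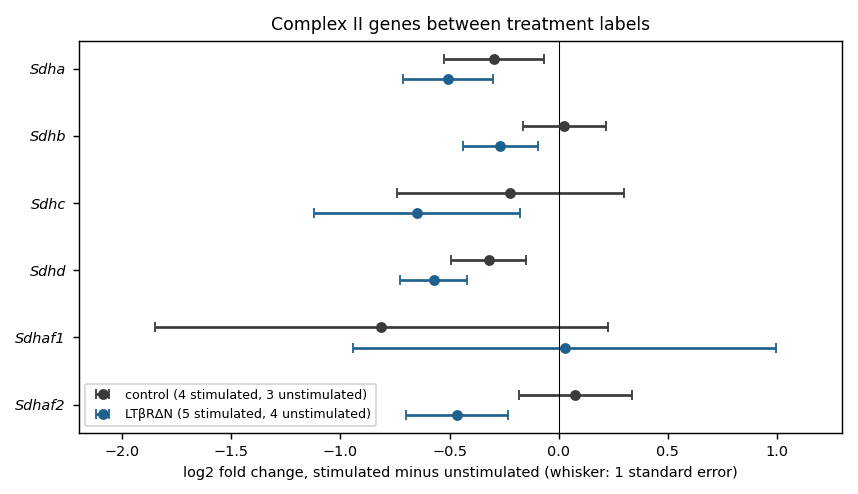
Log2 fold change, stimulated minus unstimulated, of the 6 complex II genes in control (dark) and LTβRΔN (blue) neutrophils, with whiskers of 1 standard error. Of the members, Sdhd has the narrowest whiskers, at -0.32 and -0.57, and Sdhaf1 the widest.

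Counted together, 0 of the 6 members passed the threshold between treatment labels in control neutrophils by edgeR, where 3.48% of all genes tested did, and 0 had an unadjusted p under 0.05. By DESeq2 the count was also 0, as it was under each of the 17 alternatives. Of the 6, 4 had a log2 fold change below 0, beside 51.8% of all genes tested, and their median was -0.26 beside -0.02 over all genes. In LTβRΔN neutrophils 5 of 6 were below 0, where 52.2% of all genes were, and 3.73% of genes passed the threshold. The subunits had a median of -0.54 there beside -0.03 over all genes. These LTβRΔN values were used in choosing the genes and are no result about them.

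The summed level of the 4 subunits was 444 ± 64.2 CPM (SD, n = 3) in unstimulated and 386 ± 35.3 CPM (SD, n = 4) in stimulated controls. Its ranges there, 371 to 491 and 336 to 419 CPM, overlapped. In LTβRΔN neutrophils the sum was 459 ± 51.3 CPM (SD, n = 4) without and 333 ± 21.2 CPM (SD, n = 5) with stimulation. The highest stimulated library there, at 363 CPM, was below the lowest unstimulated one, at 391 CPM. The genes were chosen on these LTβRΔN values, so that separation is no result about them. Depth moved with these groups, and the shallowest library of all, an unstimulated one, had the highest sum, 513 CPM. Replicate 2, the deepest stimulated LTβRΔN library at 8575222 counts, had 348 CPM. Without the 5 shallowest libraries, an alternative added after seeing the data, the subunit median in LTβRΔN neutrophils was -0.192. In bulk libraries a smaller share of cells with a transcript and less of it per cell cannot be told apart.

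The sequencing index in the sample titles also moved with the treatment label. Index S520 held 6 unstimulated libraries, and S521 held unstimulated control replicate 3 with all stimulated libraries, so index and label cannot be told apart in LTβRΔN neutrophils. Within S521, the 4 stimulated controls were all below the single unstimulated one for Sdhd (at most 140 against 150 CPM) and Sdhaf2 (at most 83.5 against 84.6 CPM). For Sdha 1 of 4 was below it and for Sdhb 0 of 4, so neither was lower with stimulation within that index. For Sdhc it was 3 of 4 and for Sdhaf1 2 of 4. With the index as a covariate, the log2 fold change of Sdha was 0.249 in control and 0.247 in LTβRΔN neutrophils, and that covariate rests on the 1 unstimulated library in S521.

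Between genotypes the members overlapped in both comparisons. Without stimulation the LTβRΔN minus control log2 differences were 0.05 for Sdha, 0.07 for Sdhb, 0.25 for Sdhc and -0.0049 for Sdhd, with a subunit median of 0.06. Sdhaf2 stood at -0.03 and Sdhaf1, on few counts, at -1.12. With stimulation they were -0.16 (SE 0.21) for Sdha, -0.23 (0.17) for Sdhb, -0.17 (0.47) for Sdhc, -0.26 (0.15) for Sdhd, -0.29 (0.95) for Sdhaf1 and -0.57 (0.23) for Sdhaf2. All 6 were below 0, where 51.2% of all genes were, against 3 of 6 without stimulation, where 51.1% were. Both counts hold LTβRΔN libraries used in choosing the genes, so they describe the members and are no result about genotype. At either label 0.0217% of genes passed the threshold between genotypes. The signs were not all kept when libraries were left out. Sdhc stood at 0.107 without stimulated LTβRΔN replicate 5, at 0.0947 without stimulated control replicate 4 and at 0.558 without the 5 shallowest libraries, Sdhaf1 reached 0.162 without stimulated control replicate 1, and Sdha was 0.0422 without the 5 shallowest libraries. Without stimulation the subunit median ran from -0.0488 without control replicate 3 to 0.214 without control replicate 1, and Sdhc from 0.105 to 0.382 with 1 library left out. The difference between the stimulation changes of the genotypes was -0.21, -0.29, -0.43 and -0.25 for the subunits in the order Sdha to Sdhd, -0.54 for Sdhaf2 and 0.84 for Sdhaf1, and 0 of 9213 genes (0%) passed the threshold for it by edgeR, 342 having an unadjusted p under 0.05.

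Other genes of the pathway were taken from lists of pathway genes, chosen with earlier results of these data known, with 123 tested in all. By edgeR 3 of these passed the threshold in control and 6 in LTβRΔN neutrophils, and by DESeq2 5 and 7 passed. At an unadjusted p under 0.05 there were 13 and 11, a share no larger than the 11.4% and 13% of all genes tested. Of complex I, the proton-pumping NADH dehydrogenase, 35 genes were tested and 0 passed the threshold in either genotype by edgeR (1 and 0 at an unadjusted p under 0.05). Their median log2 fold change was 0.04 in control and -0.09 in LTβRΔN neutrophils. For complex III the 9 genes had medians of -0.09 and -0.15, for complex IV 11 genes had -0.06 and -0.05, and for the ATP synthase 15 genes had -0.04 and -0.11, again with 0 past the edgeR threshold and at most 1 gene of each complex at an unadjusted p under 0.05. Within complex III, Uqcrfs1, the Rieske iron-sulfur protein, had 73.7 ± 9.39 CPM (SD, n = 3) in unstimulated and 46.1 ± 11 CPM (SD, n = 4) in stimulated controls without overlap (log2 fold change -0.68, SE 0.22, edgeR adjusted p = 0.106).

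**Figure D4:**
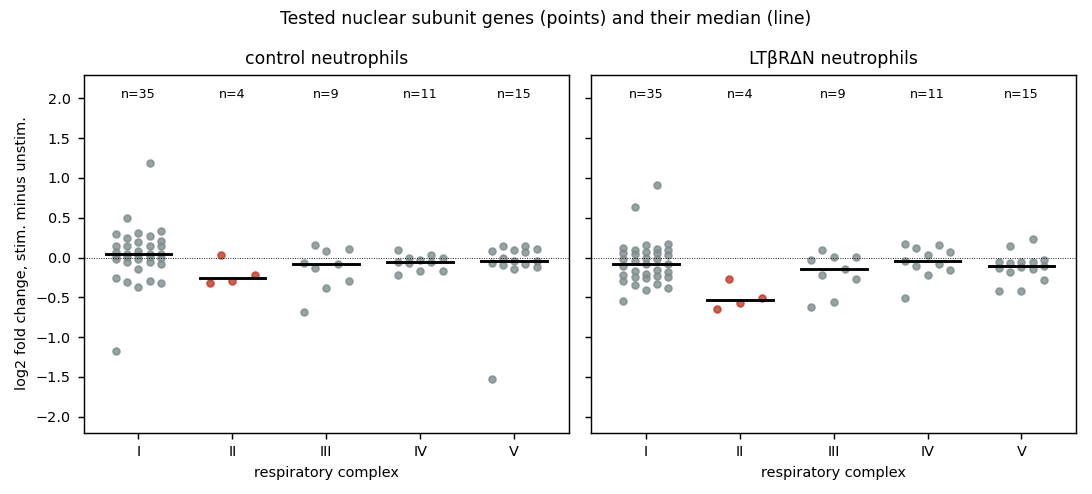
Log2 fold change, stimulated minus unstimulated, of each tested nuclear subunit gene of respiratory complexes I to V (points; horizontal offsets carry no value) in control (left) and LTβRΔN (right) neutrophils, with the median of each complex as a line. The complex II median is -0.26 in control and -0.54 in LTβRΔN neutrophils, and the other medians lie between -0.15 and 0.04. The complex II genes were chosen on the LTβRΔN comparison, so their median there is a description.

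Iron-sulfur and FAD supply, which feeds the cofactors of SDHB and SDHA, had 14 of 17 listed genes tested, with medians of -0.24 in control and -0.41 in LTβRΔN neutrophils. Isca1, a mitochondrial protein of iron-sulfur cluster assembly, fell in LTβRΔN neutrophils from 64.6 ± 19.8 CPM (SD, n = 4) to 29.3 ± 9.8 CPM (SD, n = 5), where unstimulated replicate 4 at 36.6 CPM lay below stimulated replicate 2 at 40.3 CPM. Its log2 fold change was -1.10 (SE 0.31, edgeR adjusted p = 0.04996), and it lost the threshold in 7 of 9 fits that left out 1 library, all except those without unstimulated replicate 4 or stimulated replicate 2. In these 9 fits the adjusted p ran from 0.0187 to 0.158. In controls Isca1 had a log2 fold change of -1.18 (SE 0.34, edgeR adjusted p = 0.0624).

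Around complex II in the TCA cycle 13 genes were tested and 0 passed the edgeR threshold (2 in control and 1 in LTβRΔN neutrophils at an unadjusted p under 0.05), with medians of -0.12 and -0.25. Suclg1, a subunit of the succinyl-CoA ligase that makes succinate, had log2 fold changes of 0.11 and -0.34, and Sucla2, the ATP-forming partner, -0.14 and -0.30, in control and LTβRΔN neutrophils. Fh1, the fumarase that takes up the product of complex II, was on at most 36 counts in any library. Of the other enzymes that reduce ubiquinone 6 were tested and 0 passed, 1 having an unadjusted p under 0.05 in each genotype by edgeR. Sqrdl, the sulfide quinone oxidoreductase, had the nearest value, with log2 fold changes of -0.39 in control and -0.55 in LTβRΔN neutrophils (edgeR adjusted p = 0.411 and 0.0687). Of genes for ubiquinone synthesis 10 were tested and 0 passed, again with 1 at an unadjusted p under 0.05 by edgeR, and the medians were 0.12 and 0.25.

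The list of succinate, itaconate and HIF genes held those that rose with stimulation. Of 13 listed genes 10 were tested, and 3 rose in control and 5 in LTβRΔN neutrophils, with 0 lower. Of all genes tested 2.82% passed and were higher in control and 2.98% in LTβRΔN neutrophils, and 0.662% and 0.749% passed and were lower. Irg1, now named Acod1, makes itaconate, an inhibitor of succinate dehydrogenase. It rose from 556, 261 and 663 CPM to 3410, 2640, 4350 and 2610 CPM in controls, a log2 fold change of 2.72 (SE 0.25, edgeR adjusted p = 5.23e-08). In LTβRΔN neutrophils it rose from 833, 576, 581 and 647 CPM to 3010, 4100, 3040, 2850 and 2960 CPM, a log2 fold change of 2.27 (SE 0.21, edgeR adjusted p = 6.81e-08). With the index as a covariate the LTβRΔN change of Irg1 was 1.58 and did not pass (adjusted p = 0.0803). The lowest stimulated library, at 2610 CPM, was far above the highest unstimulated one, at 833 CPM.

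Egln3, a prolyl hydroxylase of HIF proteins that releases succinate, rose from 8.09 ± 5.05 CPM (SD, n = 3) to 248 ± 37 CPM (SD, n = 4) in controls and from 8.22 ± 3.72 CPM (SD, n = 4) to 224 ± 28.5 CPM (SD, n = 5) in LTβRΔN neutrophils. Its log2 fold changes were 4.93 and 4.66 (edgeR adjusted p = 4.31e-10 and 1.42e-10). Kdm6b, a histone demethylase that succinate can inhibit, rose with log2 fold changes of 1.44 and 1.43 (edgeR adjusted p = 2.83e-06 and 4.57e-07). Within index S521 the lowest stimulated control was above the single unstimulated one for each of these genes, at 2610 against 663 CPM for Irg1, 209 against 3.93 CPM for Egln3 and 617 against 278 CPM for Kdm6b.

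Hif1a rose in LTβRΔN neutrophils, from 221, 229, 229 and 278 CPM to 292, 381, 316, 381 and 322 CPM (log2 fold change 0.50, SE 0.12, edgeR adjusted p = 0.019). Its control values, 270, 209 and 283 CPM against 257, 257, 254 and 254 CPM, gave a log2 fold change of 0.01 (SE 0.14, edgeR adjusted p = 0.994). The difference between these changes was 0.49 (SE 0.19, edgeR unadjusted p = 0.0144, adjusted p = 1) and did not pass. Tet2, a DNA demethylating enzyme of the same class, rose in LTβRΔN neutrophils from 19.4 ± 1.86 CPM (SD, n = 4) to 37.5 ± 6.55 CPM (SD, n = 5) (log2 fold change 0.93, SE 0.24, edgeR adjusted p = 0.0275). Its control log2 fold change of 0.88 did not pass by edgeR (adjusted p = 0.0851) and passed by DESeq2 (adjusted p = 0.0171).

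Neither LTβRΔN call held in every fit without 1 library. Hif1a lost the threshold without unstimulated replicates 1, 2 or 3 or stimulated replicates 2 or 4, with adjusted p between 0.0128 and 0.0826 over the 9 fits. Tet2 lost it without any of the 4 unstimulated replicates or stimulated replicates 3 or 4, with adjusted p between 0.0279 and 0.0814. Without the 5 shallowest libraries neither passed (edgeR adjusted p = 0.122 for Hif1a and 0.558 for Tet2), nor did they with the index as a covariate (adjusted p = 1 for both). Egln1, the main oxygen-sensing prolyl hydroxylase, had log2 fold changes of 0.74 and 1.28 (edgeR adjusted p = 0.911 and 0.603), and Sucnr1, the succinate receptor, had 0 counts in every library. Between genotypes 0 genes of these lists passed the threshold at either label by edgeR or DESeq2, with 2 of 123 (unstimulated) and 9 of 123 (stimulated) at an unadjusted edgeR p under 0.05, where 2.8% and 6.41% of all genes were.

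**Figure D5:**
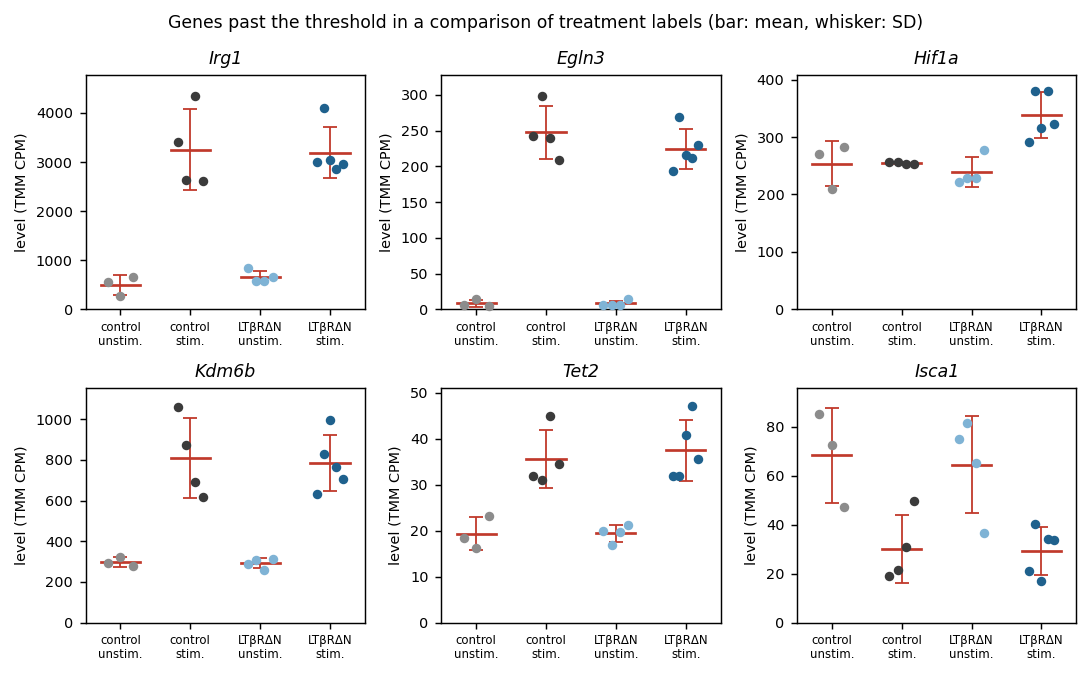
Level (TMM CPM) in each of the 16 libraries (points), with group mean (bar) and SD (whisker), of the 6 pathway genes past the threshold in at least 1 comparison of treatment labels. Irg1, Egln3 and Kdm6b stand higher in every stimulated library of both genotypes, Hif1a does so in LTβRΔN neutrophils and overlaps in controls, and Isca1 has lower means with stimulation.

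The neighbours that share a promoter region did not pass the threshold. Timm8b, opposite Sdhd, had 60 ± 16.2 CPM (SD, n = 3) without and 50.3 ± 5.16 CPM (SD, n = 4) with stimulation in controls, and 60.9 ± 14.2 CPM (SD, n = 4) and 50.8 ± 5.4 CPM (SD, n = 5) in LTβRΔN neutrophils. Its log2 fold changes were -0.25 (SE 0.23) and -0.28 (SE 0.21), with overlap in both genotypes (edgeR adjusted p = 0.84 and 0.671). In controls Sdhd had -0.32 (SE 0.17, edgeR adjusted p = 0.522), and a difference between these genes was not tested. Ccdc127, opposite Sdha, had -1.29 and -0.07 (edgeR adjusted p = 0.309 and 0.985), and Cpsf7, opposite Sdhaf2, -0.13 and 0.36 (edgeR adjusted p = 0.965 and 0.754).

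Likeness of pattern was measured as the root mean square difference in log2 CPM over the 16 libraries, each gene centred on its own mean, among 5448 genes with a mean of at least 10 CPM. The genes most like Sdhd were Atg3, an enzyme of autophagosome formation, at 0.164, then Rnf10 at 0.176, Tspyl1 and Tmem66 at 0.179 and Tmed2 at 0.19. For the mean of the 4 subunits they were Rab7, a late endosome GTPase, at 0.159, Apobr at 0.163, Sepp1 at 0.17, Ugt1a7c at 0.174 and Slc44a2 at 0.182. Among the 4 subunits, Sdha and Sdhd were most alike at 0.306, followed by Sdhb and Sdhd at 0.385 and Sdha and Sdhb at 0.4. All pairs share their libraries and depth, so these values describe resemblance in this series.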

How the data were processed

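Poly(A) RNA of 16 blood neutrophil libraries was sequenced with single-end reads. Counts of reads per gene symbol, whole and not normalized, were deposited in 1 table. Bowtie 1.0.0, TopHat 1.4.1, HTSeq 0.7.1 and mm10 are named in the submitters' processing notes. Libraries were matched to groups by the sample titles and column names, and every column was used. No label says that libraries came from separate animals, so p-values measure the spread between these libraries. Genes were kept by filterByExpr (minimum count 10, minimum total 15), leaving 9213 of 23337, and fitted over all 16 libraries by the quasi-likelihood test of edgeR 4.0.16 (R 4.3.3) with TMM scaling and a coefficient for each group, with Benjamini-Hochberg adjustment over all genes tested and a threshold of 0.05. Standard errors are of the log2 fold change. Levels per kb used the principal transcript of the GENCODE annotation of GRCm38, and a count of 0 was given a floor of 3 counts, which covers counting error only. Chi-square per degree of freedom was 7.12 to 50.4 over 25 pairs of libraries within groups, so each library counted once. The alternatives were DESeq2 1.42.0 (its size factors and its Wald test), other scalings and filters, the index, the column number as a block and each library left out. The members and gene lists were chosen with earlier results of these data known. Named genes were the members, the complex II assembly and succinate genes, list genes past the threshold or, failing any, those with the smallest p in controls, genes facing a member and those most like Sdhd or the subunit mean.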

Additional observations from a re-analysis of the deposited data

Results flagged for a closer look

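Of 114 groups of 4 or 5 libraries examined, 7 held a library far from the others, where chance gives about 1 in 20 groups, or 5.7. Sdhaf2 stood at 45.6 CPM in replicate 3 of stimulated controls, beside 78.5 to 83.5 CPM in the other three. This is the library with the highest sums of platelet and immature neutrophil markers, 170 and 764 CPM, whose part in the value was not tested. In replicate 2 of stimulated LTβRΔN neutrophils Irg1 reached 4100 CPM, above 2850 to 3040 CPM in the rest. Replicate 4 of unstimulated LTβRΔN neutrophils was high for both Hif1a, at 278 CPM above a next value of 229 CPM, and Egln3, at 13.8 CPM above 6.4 CPM. Uqcrc2, a core protein of complex III, was at 50.8 CPM in replicate 1 of stimulated controls, where the next value was 30.1 CPM. Atp5g1, which encodes the ring subunit of the ATP synthase, was at 10.1 CPM in replicate 5 of stimulated LTβRΔN neutrophils, where the next value was 4.23 CPM. Fh1 was at 2.85 CPM in replicate 2 of stimulated controls and at most 0.125 CPM in the others of that group.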

How the results depend on the processing

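No member passed the threshold in controls under any of the 17 alternatives. The median log2 fold change of the 4 subunits in controls (-0.259) stayed below 0, between -0.51 and -0.0127 with the index as covariate, and between -0.385 and -0.0998 with 1 library left out. In LTβRΔN neutrophils (-0.54) it was -0.728 with library totals only, -0.166 with the index, -0.192 without the 5 shallowest libraries (added after seeing the data), and between -0.611 and -0.414 with 1 library left out, the latter without stimulated replicate 5. With the index, LTβRΔN log2 fold changes were 0.247 for Sdha, 0.169 for Sdhb, 0.11 for Sdhc and -0.965 for Sdhaf2. The index term rests on 1 unstimulated control library.

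In controls the sign turned for Sdhb with upper-quartile scaling (-0.0223), library totals only (-0.223) and the replicate block (-0.0124), and with 1 library left out it ran from -0.107 to 0.199. For Sdhaf2 it turned with library totals only (-0.162) and the index (-0.238), and ran from -0.131 to 0.257 with 1 library left out. For Sdha it turned with the index (0.249). Hif1a in controls was at -0.0371 with upper-quartile scaling, -0.234 with library totals only, -0.144 with the index, and between -0.12 and 0.0888 with 1 library left out.

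Genes past the threshold in controls (321) numbered 157 with the index and 219 to 334 with 1 library left out. In LTβRΔN neutrophils (344) there were 79 with the index, 218 without those 5 libraries, and 266 to 334 with 1 left out. Between genotypes without stimulation (2) there were 4 without a filter, 1 with at least 10 counts in every library, 4 by DESeq2, and 2 to 6 with 1 left out, the 6 without control replicate 1. With stimulation (2) there were 1 under that filter, 14 by DESeq2 and 4 without those 5 libraries. Of the LTβRΔN pathway calls (6), 2 were left with the index, Egln3 and Kdm6b, and Irg1 had adjusted p = 0.0803. With library totals only, Hif1a and Tet2 did not pass there (adjusted p = 0.137 and 0.0691), and without those 5 libraries neither did Isca1 (adjusted p = 0.741). In controls Isca1 passed with upper-quartile scaling, library totals, either filter and DESeq2 (adjusted p = 0.0131 to 0.0467). The cause of these changes was not tested. The numbers in column names, whose meaning is not given, paired 7 stimulated with unstimulated libraries of the same genotype. Deviations from group means correlated by 0.0214 to 0.0694 within these pairs, which cannot exclude a pairing by animal. The main fit did not use the numbers as pairs. Under the replicate block Isca1 and Tet2 in LTβRΔN neutrophils did not pass (adjusted p = 0.105 and 0.0751). Sdhc and Sdhaf1 have no value under the filter of 10 counts in every library.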

Other observations

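The remaining complex II assembly factors were barely detected. Sdhaf3, listed as Acn9, had 10 counts in replicate 4 of stimulated controls and 0 in the other 15 libraries, and Sdhaf4, listed as 1110058L19Rik, had at most 16 counts.

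The partners of succinyl-CoA ligase gave an unusual pair of values in 1 library. Suclg2, the GTP-forming subunit, had 17 counts (7.63 CPM) in replicate 4 of stimulated LTβRΔN neutrophils and 0 counts in the other 15 libraries. In that same library Sucla2, the ATP-forming subunit, had 0 counts, while it lay between 10.8 and 33.1 CPM in all others. Idh3a, a subunit of the NAD-dependent isocitrate dehydrogenase, had 6, 19 and 16 counts in 3 stimulated libraries and 0 elsewhere, so no fold is given. Coq7, a hydroxylase of ubiquinone synthesis, was higher in all 4 stimulated controls (2.84 to 5.69 CPM) than in the unstimulated ones (0 to 0.842 CPM), and did not pass the threshold (log2 fold change 3.22, standard error 1.66, edgeR adjusted p = 0.504). Coq10a had log2 fold changes of -1.66 in control and 0.36 in LTβRΔN neutrophils (edgeR adjusted p = 0.36 and 0.927).

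In complex I, Ndufa12 was higher in all stimulated controls, at 8.61 to 15.2 CPM against 4.87 to 5.47 CPM (log2 fold change 1.19, edgeR adjusted p = 0.308), and Ndufs3 was lower in all of them, at 0 to 13.3 CPM against 18.4 to 22.2 CPM (log2 fold change -1.18, edgeR adjusted p = 0.593). Neither passed the threshold. Over all genes tested, 6.58% had stimulated controls all above the unstimulated ones and 6.09% all below.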
